A study of Caenorhabditis elegans with 6 samples.

Results

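The 10 loci described here carried many small RNA reads in hrde-1 mutant worms and few in worms that lack MEG-3 and MEG-4, whether or not hrde-1 was also mutated. They are prx-11 (C47B2.8), spds-1 (Y46G5A.19), pqn-52 (M01E11.4), Y20F4.9, W04B5.3, Y48B6A.17, T05C3.6, Y59C2A.3, T20F5.5 and ZK673.4, and they were found by name among the 42402 loci of the deposited tables. They had been selected on these libraries, for a high level in hrde-1 and a low level in the other 2 strains, so the size of that difference is given as a description and without a test. What the choice did not use is the level in wild type and the loci around each member. It did ask for a low level in both strains without MEG-3 and MEG-4, which limits how far these 2 can differ from each other. The level in wild type separates loci already near their hrde-1 level there from loci that gained most of their small RNAs in hrde-1.

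The worms were whole Caenorhabditis elegans at the stage of young mothers, which had been synchronized by starvation and fed HT115 bacteria with the L4440 vector at 20 °C. The triple mutant carries hrde-1(tm1200) together with the alleles ax3055 of meg-3 and ax3052 of meg-4, the meg-3 meg-4 strain is JH3745, outcrossed, with the same alleles ax3055 and ax3052, and the single mutant carries hrde-1(tm1200). Each strain had 2 small RNA libraries. The wild type N2 entered only as the mean and the comparisons that the authors deposited, without an error or a number of libraries. The labels do not say whether the libraries of a strain came from separate cultures, so p-values measure the spread between these libraries, which may be technical. Each strain is 1 genotype, and whole worms mix germ line and somatic tissue.

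In C. elegans, RNA-dependent RNA polymerases copy messenger RNAs into short antisense RNAs, and these are loaded onto Argonaute proteins that silence the gene they match. HRDE-1 is an Argonaute of the germ line that carries such small RNAs into the nucleus and is needed for silencing to pass from parent to offspring. MEG-3 and MEG-4 are disordered proteins that scaffold P granules, condensates of RNA and protein in germ cells, in which many factors of the small RNA pathway gather. The number of small RNA reads at a locus is a measure of how strongly that gene is targeted, and it is not the level of its messenger RNA.

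The libraries held 6780320 and 2384147 reads in the triple mutant, 5628602 and 5115457 reads in meg-3 meg-4, and 5450690 and 4604636 in hrde-1. Reads at marker groups of tissues also differed, some between strains and some between the libraries of 1 strain. Reads at the 6 vitellogenin (yolk) genes summed to 150.9 and 79.7 reads scaled to a common library size (RPM) in the triple mutant, 273.9 and 3231 RPM in meg-3 meg-4, and 38.8 and 55.0 in hrde-1. Reads at 4 microRNAs of larval and adult soma summed to 6301 and 4836 RPM in the triple mutant, 4952 and 4952 RPM in meg-3 meg-4, and 2180 and 2903 in hrde-1, with every library of the strains lacking MEG-3 and MEG-4 above both hrde-1 libraries. The 6 muscle genes ranged from 14.1 to 15.7 RPM in the triple mutant, from 27.7 to 179.5 in meg-3 meg-4 and from 6.39 to 6.78 in hrde-1. The 8 microRNAs of embryo and oocyte ranged from 9764 to 10911 RPM in the triple mutant, from 4948 to 13606 in meg-3 meg-4 and from 8359 to 8756 in hrde-1. The 52 sperm genes ranged from 243.4 to 265.8 RPM, from 165.5 to 218.5 and from 280.8 to 449.0 in the same 3 strains. The 13407 germ line 21U-RNA loci ranged from 34069 to 40724 RPM, from 24422 to 29660 and from 28131 to 39827. Some markers were at 0 in a library, namely up to 15 sperm genes, up to 8719 21U-RNA loci and 1 muscle gene in 1 hrde-1 library, and no marker of the other lists was. The part of these tissue differences in the levels of the 10 loci was not tested, and in whole worms fewer cells of a type cannot be told apart from fewer small RNAs per cell.

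Summed over the 10 loci, small RNAs came to 111.0 and 68.4 RPM in the triple mutant and 78.5 and 110.0 RPM in meg-3 meg-4, against 3147 and 4563 RPM in hrde-1. RPM here are reads scaled jointly over the 6 libraries with TMM, the trimmed mean of M values. At each of the 10 loci both hrde-1 libraries lay above all 4 libraries without MEG-3 and MEG-4, which is what the choice of members asked for. Over all loci tested, 34.2% had both triple mutant libraries, and 24.1% both meg-3 meg-4 libraries, below both hrde-1 libraries. The lowest hrde-1 library exceeded the highest of the other 4 by between 16.6-fold at Y59C2A.3 and 38.8-fold at prx-11. The median log2 fold change was −5.32 in the triple mutant over hrde-1 (range −5.93 to −4.47), where the median of all 6469 loci tested was −0.18. In meg-3 meg-4 over hrde-1 it was −5.27 (range −6.33 to −4.31), where that of all loci was −0.15. Fold changes are on the scale of log2(RPM + 1), with a standard error (SE) between 0.32 and 0.45. For comparison, 5.91% of all loci were called lower in the triple mutant than in hrde-1 and 9.38% lower in meg-3 meg-4 than in hrde-1, by limma at a Benjamini-Hochberg adjusted p under 0.05. All 10 members are among them by choice, and all 10 passed the filter of a mean of at least 10 RPM. With the other 4 libraries scaled without those of hrde-1, Y20F4.9 and Y59C2A.3 alone passed it, so the other 8 entered through their high level in hrde-1.

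**Figure D1:**
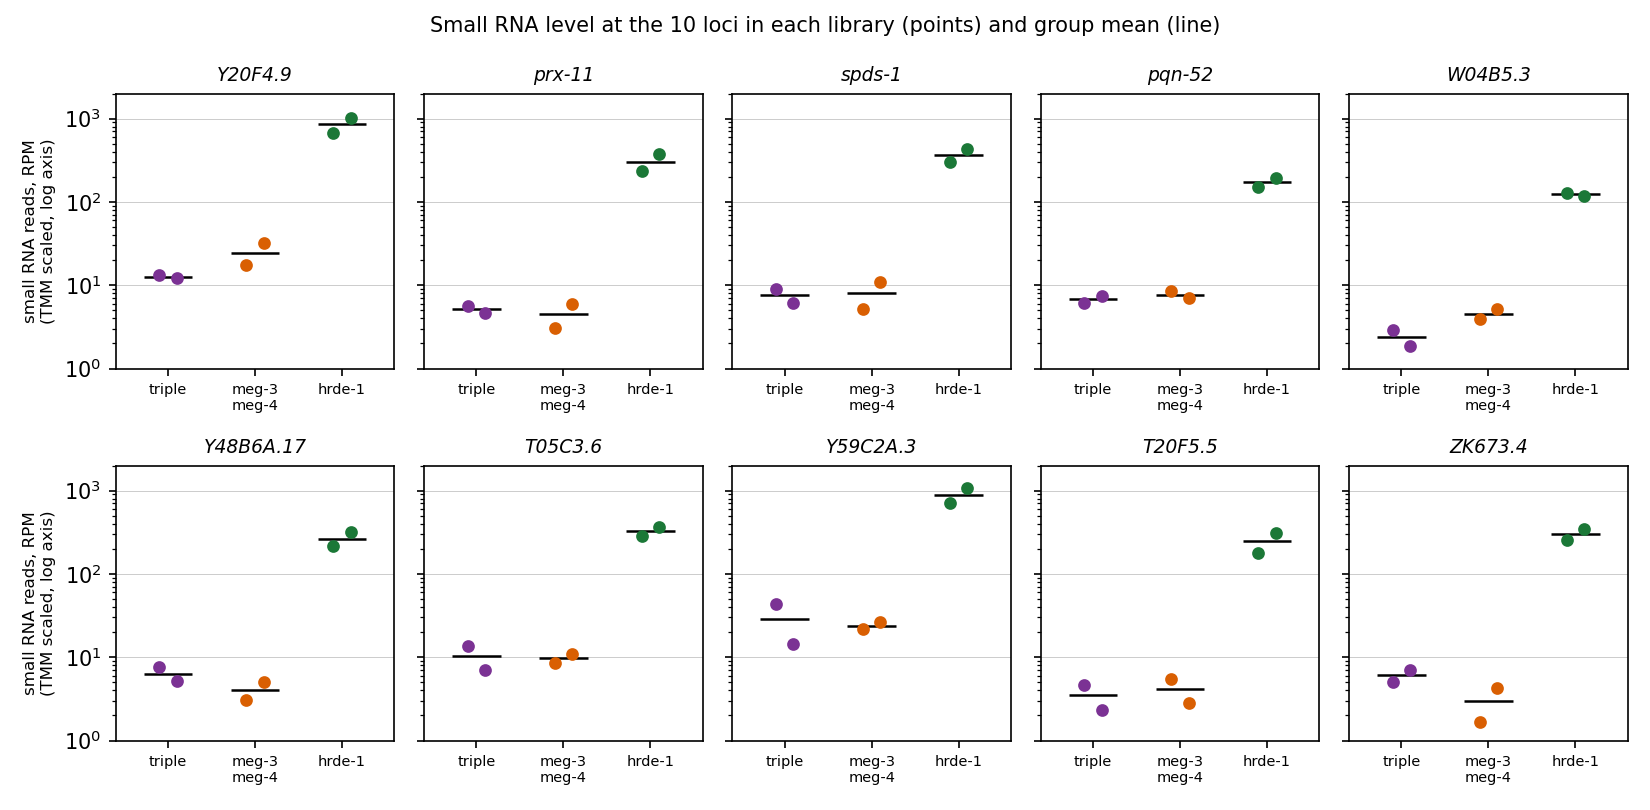
Small RNA level at each of the 10 loci, as RPM on a log axis, in the triple mutant, meg-3 meg-4 and hrde-1. Points are the 2 libraries of a strain and the line is their mean. At every locus both hrde-1 points lie at or above 117.9 RPM, and all points of the other strains lie at or below 43.2 RPM.

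At 5 of the 10 loci small RNAs were already present in N2 at levels near those of hrde-1. For these the mean of the hrde-1 libraries was between 0.84 and 2.58 times the authors' N2 mean, and the authors' N2 mean itself lay between 61.4 and 1278 in deposited signal. The deposited signal is in fpm per the file headers, and it is scaled otherwise than the RPM above. The line between both kinds of loci was drawn at a ratio of 5 after the ratios had been seen, and no locus lay between 2.58 and 10.3.

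Y20F4.9 (WBGene00206476) has no match in the reference annotation. It carried 13.2 and 12.2 RPM in the triple mutant, 17.4 and 31.7 RPM in meg-3 meg-4, and 678.0 and 1027 in hrde-1. Its deposited signal was 938.3 and 1205 in the hrde-1 libraries, and the authors' N2 mean was 1278. In hrde-1 it was thus below the N2 mean in both libraries, and the authors' deposited table gives a log2 fold change of −0.25 for hrde-1 over N2 (adjusted p = 0.624).

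At prx-11 (WBGene00004196), which encodes a peroxin of the PEX11 kind that acts in the division of peroxisomes, the triple mutant had 5.60 and 4.69 RPM, meg-3 meg-4 3.04 and 6.02, and hrde-1 233.5 and 377.1. The deposited signal was 323.1 and 442.7 in the hrde-1 libraries and 321.2 as the authors' N2 mean. One hrde-1 library thus sat at the N2 level and the other above it. The log2 fold change of hrde-1 over N2 in the authors' deposited table was 0.25 (adjusted p = 0.647).

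At spds-1 (WBGene00012909), the gene for spermidine synthase, there were 9.04 and 6.09 RPM in the triple mutant, 5.23 and 10.8 RPM in meg-3 meg-4, and 304.3 and 430.5 in hrde-1. The signal was 421.1 and 505.3 in hrde-1 and 258.8 as the authors' N2 mean, a log2 fold change of 0.84 in the authors' deposited table (adjusted p = 0.0169). Both hrde-1 libraries were above the N2 mean.

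The gene pqn-52 (WBGene00019713), one of a family named for glutamine- and asparagine-rich, prion-like segments, had 6.14 and 7.5 RPM in the triple mutant, 8.44 and 7.03 RPM in meg-3 meg-4, and 150.1 and 196.1 in hrde-1. Its signal was 207.7 and 230.2 in hrde-1 and 118.6 as the authors' N2 mean, and the authors' deposited table gives a log2 fold change of 0.89 (adjusted p = 0.0305). W04B5.3 (WBGene00021020) had 2.89 and 1.88 RPM in the triple mutant, 3.88 and 5.22 RPM in meg-3 meg-4, and 129.2 and 117.9 in hrde-1. It was also the 1 locus at which the second hrde-1 library did not exceed the first. Its signal was 178.8 and 138.4 in hrde-1 and 61.4 as the authors' N2 mean, with a log2 fold change of 1.37 in the authors' deposited table (adjusted p = 1.66e-04).

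At the other 5 loci most of the small RNAs seen in hrde-1 were gained in that strain. Their mean in hrde-1 was between 10.3 and 46.8 times the authors' N2 mean, which lay between 8.19 and 52.5 in deposited signal. None of the 5 was thus absent from N2, and the 52.5 of Y59C2A.3 was close to the 61.4 of W04B5.3. The names present in N2 and arose in hrde-1 stand for the ratio only.

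ZK673.4 (WBGene00014060) showed the largest ratio, 46.8. It had 5.06 and 7.03 RPM in the triple mutant, 1.69 and 4.22 RPM in meg-3 meg-4, and 257.1 and 349.2 in hrde-1. The signal was 355.8 and 409.9 in hrde-1 and 8.19 as the authors' N2 mean, a log2 fold change of 5.55 in the authors' deposited table (adjusted p = 1.07e-64). T20F5.5 (WBGene00020627) was close behind at a ratio of 36.8. It had 4.70 and 2.34 RPM in the triple mutant, 5.4 and 2.81 RPM in meg-3 meg-4, and 180.2 and 310.6 in hrde-1. Its signal was 249.3 and 364.5 in hrde-1 and 8.35 as the authors' N2 mean, with a log2 fold change of 5.2 in the authors' deposited table (adjusted p = 2.20e-49). At both loci the small RNAs seen in hrde-1 were thus almost all gained in that strain.

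Y59C2A.3 (WBGene00021986) had 43.2 and 14.5 RPM in the triple mutant, 21.8 and 26.1 RPM in meg-3 meg-4, and 718.1 and 1070 in hrde-1. Its signal was 993.7 and 1256 in hrde-1 and 52.5 as the authors' N2 mean, a ratio of 21.4 and a log2 fold change of 4.42 in the authors' deposited table (adjusted p = 7.46e-54). The 2 triple mutant libraries lay on both sides of the meg-3 meg-4 libraries at this locus.

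T05C3.6 (WBGene00020256) had 13.6 and 7.03 RPM in the triple mutant, 8.61 and 11 RPM in meg-3 meg-4, and 281.4 and 369.3 in hrde-1. Its signal was 389.4 and 433.5 in hrde-1 and 23.0 as the authors' N2 mean, with a log2 fold change of 4.16 in the authors' deposited table (adjusted p = 2.06e-45). Y48B6A.17 (WBGene00194884), an antisense RNA gene in the reference annotation, had 7.59 and 5.16 RPM in the triple mutant, 3.04 and 5.02 RPM in meg-3 meg-4, and 215.2 and 315.5 in hrde-1. It had the smallest ratio of the 5, 10.3, from signals of 297.8 and 370.3 in hrde-1 and an authors' N2 mean of 32.5. The authors' deposited table gives a log2 fold change of 3.36 for it (adjusted p = 1.63e-26).

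In all, the authors' deposited table calls 8 of the 10 loci higher in hrde-1 than in N2 and none lower, where 8.75% of the 13876 loci with an adjusted p in that table were called higher. The 2 loci not called are Y20F4.9 and prx-11. A high hrde-1 level was part of the choice, which favours the higher direction in this comparison.

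**Figure D2:**
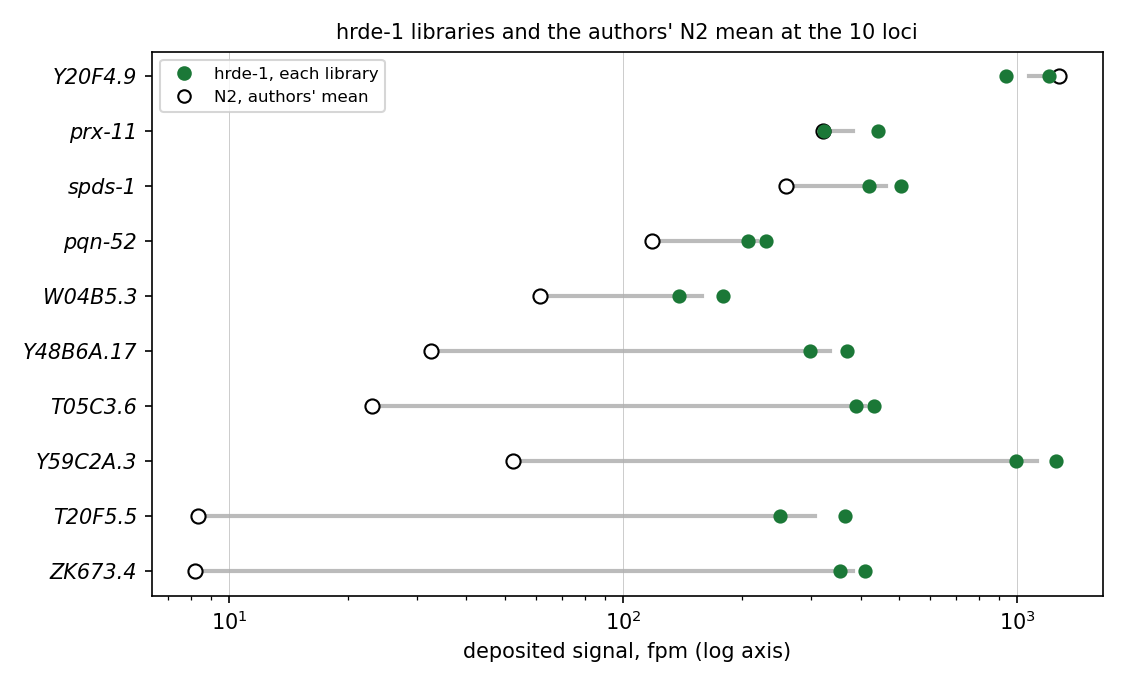
Deposited signal (fpm per the file headers, log axis) at the 10 loci, ordered by the authors' fold change of hrde-1 over N2. Filled points are the 2 hrde-1 libraries and open points the authors' N2 mean. The open point moves from 1278 at Y20F4.9 to 8.19 at ZK673.4, while the filled points stay between 138.4 and 1256.

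Against N2, the small RNAs of the triple mutant were lower mainly at the loci whose N2 level was near that of hrde-1. The authors' deposited table calls 6 of the 10 loci lower in the triple mutant than in N2, and calls none of the 10 higher, where 18.8% of 12595 loci were called in either direction. The 6 are the 5 loci present in N2 and Y48B6A.17. Low levels in the triple mutant and the N2 level itself both enter here, and this table shares N2 with the one of hrde-1 over N2, so a locus with a low N2 level had little room to be called lower.

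Among the loci present in N2 the log2 fold change of the triple mutant over N2 in the authors' deposited table was largest at Y20F4.9, −6.36 (adjusted p = 6.78e-164), where the triple mutant libraries had 10.8 and 10.9 RPM and the authors' N2 mean was 1398 RPM. These RPM are those of the deposited table, scaled to 1 common total. At prx-11 the values were 4.57 and 4.19 RPM in the triple mutant against an authors' N2 mean of 351.3 RPM, a log2 fold change of −5.64 (adjusted p = 5.95e-74) in the authors' deposited table. The other 3, spds-1, W04B5.3 and pqn-52, had log2 fold changes of −4.74, −4.31 and −3.88 in that authors' deposited table. All 5 were called.

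Among the loci at which small RNAs arose in hrde-1, Y48B6A.17 had 6.19 and 4.61 RPM in the triple mutant against an authors' N2 mean of 35.6 RPM, with a log2 fold change of −2.01 in the authors' deposited table (adjusted p = 2.26e-05). The other 4 were not called. ZK673.4 had 4.13 and 6.29 RPM in the triple mutant against an authors' N2 mean of 8.96 RPM (log2 fold change −0.19, adjusted p = 0.897, in the authors' deposited table). For Y59C2A.3, T05C3.6 and T20F5.5 the authors' deposited table gives −0.53 (adjusted p = 0.424), −0.82 (adjusted p = 0.201) and −0.89 (adjusted p = 0.437). A missed threshold does not show that these 4 loci stood at the N2 level, and all 4 values were below 0.

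No deposited table sets meg-3 meg-4 against N2. The difference of 2 of the authors' deposited log2 fold changes, triple mutant over N2 minus triple mutant relative to meg-3 meg-4, gives a value for that contrast without a test. It lay between −5.77 at prx-11 and −3.36 at W04B5.3 for the 5 loci present in N2. It was −2.64 at Y48B6A.17, −1.14 at ZK673.4, −0.86 at T05C3.6, −0.77 at Y59C2A.3 and −0.66 at T20F5.5. These values contain the triple mutant over N2 values above and are not independent of them.

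**Figure D3:**
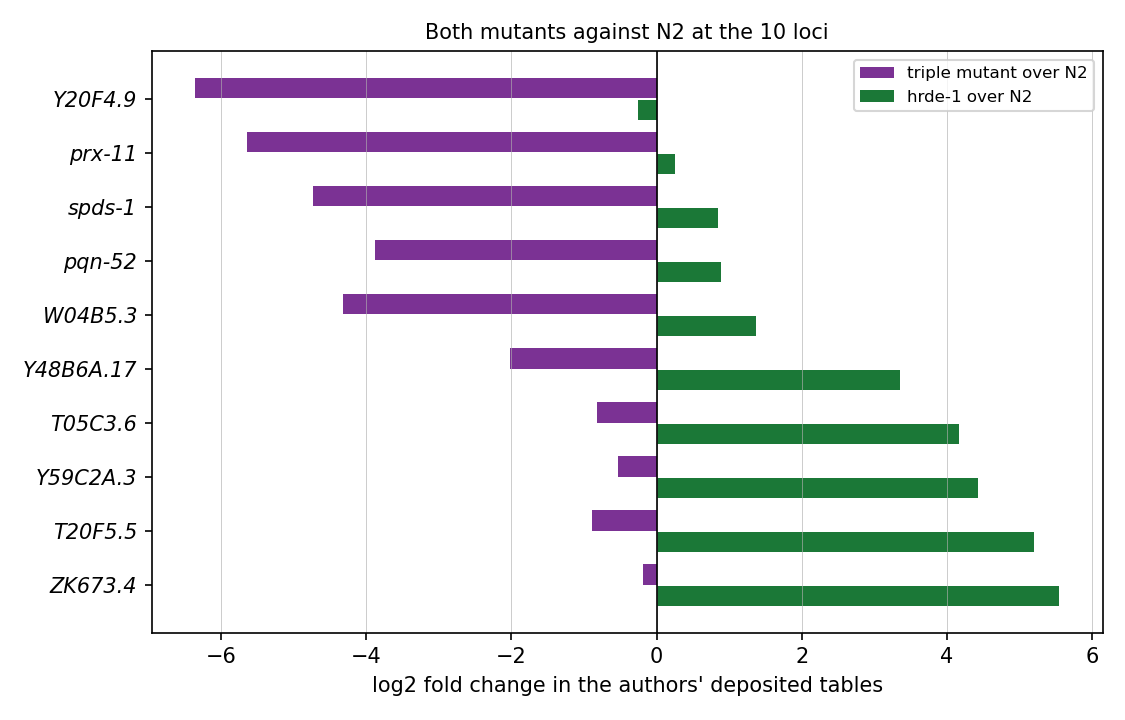
Log2 fold changes over N2 in the authors' deposited tables at the 10 loci, with the triple mutant as the upper bar and hrde-1 as the lower bar of each pair. The upper bars run from −6.36 at Y20F4.9 to −0.19 at ZK673.4, and the lower bars from −0.25 to 5.55 at the same loci. Both comparisons share N2.

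By the labels, hrde-1(tm1200) is the mutation that the triple mutant carries beyond meg-3 meg-4. Only the meg-3 meg-4 strain is labelled outcrossed, so the backgrounds of these strains may differ as well. The loci were chosen to be low in both strains. The median log2 fold change of the triple mutant relative to meg-3 meg-4 was −0.01 (range −0.84 to 0.90), where the median of all 6469 loci was −0.04. By limma 0 of the 10 loci were called, where 7.91% of all loci were, and 2 had an unadjusted p under 0.05. DESeq2 and edgeR on the recovered reads called 0 as well, but the count did not stay at 0 under every alternative processing. Nothing is read from these counts, because loci with a large difference between the 2 strains were largely kept out by the choice. The 2 loci point in opposite directions. ZK673.4 had 5.06 and 7.03 RPM in the triple mutant against 1.69 and 4.22 RPM in meg-3 meg-4, a log2 fold change of 0.90 (SE 0.37). Y20F4.9 had 13.2 and 12.2 RPM in the triple mutant against 17.4 and 31.7 RPM in meg-3 meg-4, a log2 fold change of −0.84 (SE 0.37). The 2 strains did not overlap at these 2 loci, at W04B5.3 and at Y48B6A.17, which is 4 of 10 where 42.8% of all loci did not overlap.

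The fold changes of Y20F4.9 and ZK673.4 in this comparison each moved by over 1.5 times when 1 meg-3 meg-4 library was left out. Without meg-3 meg-4 replicate 1 the log2 fold change of Y20F4.9 was −1.39. That of ZK673.4 was 1.38 once meg-3 meg-4 replicate 2 was omitted. Each of these fits leaves meg-3 meg-4 with 1 library, so the values show only how much the estimates depend on it.

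The depth sets a limit on such differences. In the triple mutant's second library, the shallowest, the 10 loci held between 4 reads at W04B5.3 and 31 at Y59C2A.3. The 4 reads have an exact 95% Poisson interval of 1.09 to 10.2 reads, or 0.51 to 4.8 RPM, which covers counting error only. In the hrde-1 libraries the same loci held between 574 and 5211 reads. Each of the 10 loci kept at least 1 read in each of the 6 libraries, so none was at 0 without MEG-3 and MEG-4.

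The 2 hrde-1 libraries also differed from each other. At 9 of the 10 loci the second had the higher RPM, by up to 1.72-fold at T20F5.5, and the median ratio over the 10 loci was 1.44 where that over all loci tested was 1.04. The second library was higher at 2 of the 10 loci in the triple mutant, and at 8 in meg-3 meg-4. These ratios are small beside the distance between hrde-1 and the other strains.

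By class, 8 of the 10 loci are protein-coding genes, Y48B6A.17 is an antisense RNA and Y20F4.9 has no match in the reference, whose genome build differs from that of the files. The 9 matched loci lie on chromosomes II (4), I (3), III (1) and V (1), and none lies on IV or X, which hold 41.5% and 13.1% of the matched loci of the tables. These shares count all matched loci, tested or not, and the 21U-RNA loci (13407, of which 444 were tested) are in the tables too. They are thus no background for the members, which all passed the filter. Their exons add up to between 645 bases at prx-11, a gene of 1 exon, and 2403 at Y59C2A.3, where the median of 5493 protein-coding loci tested was 1589. Per kilobase of exon the level in hrde-1 was highest at prx-11, with 473.3 RPM per kilobase. Y59C2A.3 followed with 372.1, then spds-1 with 309.8 and Y48B6A.17 with 286.2. T20F5.5, T05C3.6 and ZK673.4 lay together at 207.1, 204.9 and 201.4, and pqn-52 and W04B5.3 came last at 80.3 and 67.8. For loci next to each other in this order the ranges of the 2 hrde-1 libraries overlapped, except for ZK673.4 and pqn-52. The second hrde-1 library was higher at 9 of the 10 loci, so such overlap does not show that neighbours were alike within a library. In N2 the order was another one. Per kilobase of exon the authors' N2 mean, in deposited signal, was 498.0 at prx-11, 218.2 at spds-1, 55.0 at pqn-52, 35.1 at Y48B6A.17 and 33.7 at W04B5.3. It was 21.8 at Y59C2A.3, 14.5 at T05C3.6, 7.05 at T20F5.5 and 5.44 at ZK673.4. The spread of N2 is unknown, so which neighbours in this order differ cannot be said.

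The loci next to each member in the reference gene order were not part of the choice. Of the 18 flanking loci of the 9 matched members, 11 had a mean of at least 10 RPM. One of the 11, grl-18, was called lower than hrde-1 in both strains without MEG-3 and MEG-4, and a second, T05C3.2, in meg-3 meg-4 alone, both beside T05C3.6. The median log2 fold change of the 11 was −0.28 in the triple mutant over hrde-1 and −0.30 in meg-3 meg-4 over hrde-1. None of the other 9 was called lower in either comparison by limma, DESeq2 or edgeR, nor had any a lower value with an unadjusted p under 0.05. With scaling to microRNA reads, which moved the median of all loci to −1.27 in the triple mutant over hrde-1 and −1.06 in meg-3 meg-4 over hrde-1, 8 of the 11 were called lower. Next to prx-11, for example, eif-6, a ribosome biogenesis factor, had 24.9 and 25.3 RPM in the triple mutant, 29.7 and 19.5 RPM in meg-3 meg-4, and 42.4 and 32 in hrde-1. Its log2 fold changes over hrde-1 were −0.54 (SE 0.33, limma adjusted p = 0.447) in the triple mutant and −0.59 (SE 0.33, limma adjusted p = 0.314) in meg-3 meg-4. Next to ZK673.4, lin-56 gave 77.0 and 90.9 RPM in the triple mutant, 65.5 and 89.2 RPM in meg-3 meg-4, and 62.1 and 79.5 in hrde-1, with overlapping strains. Of the other flanking loci tested, efsc-1, T20F5.7, W04B5.5, M01A10.1 and cey-3 had log2 fold changes over hrde-1 between −0.61 and 0.50 in the triple mutant and between −0.72 and −0.13 in meg-3 meg-4. The 7 flanking loci under the filter were Y46G5A.20, ZK673.11, T20F5.1, hot-7, linc-74, Y59C2A.1 and cbs-2, with means over the 6 libraries of at most 5.94 RPM.

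Beside spds-1, Y46G5A.18 had 70.3 and 58.6 RPM in the triple mutant, 82.4 and 121.9 RPM in meg-3 meg-4, and 48.3 and 48.3 in hrde-1, so that all 4 libraries without MEG-3 and MEG-4 were above both hrde-1 libraries. Its log2 fold change was 1.04 in meg-3 meg-4 over hrde-1 (SE 0.34, limma adjusted p = 0.0518), which did not pass the threshold, and 0.40 in the triple mutant over hrde-1 (SE 0.34, limma adjusted p = 0.571). DESeq2 on the recovered reads called it higher in meg-3 meg-4 (log2 fold change 1.11, adjusted p = 0.0219), and over the alternatives the adjusted p in that comparison lay between 0.00804 and 0.730.

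**Figure D4:**
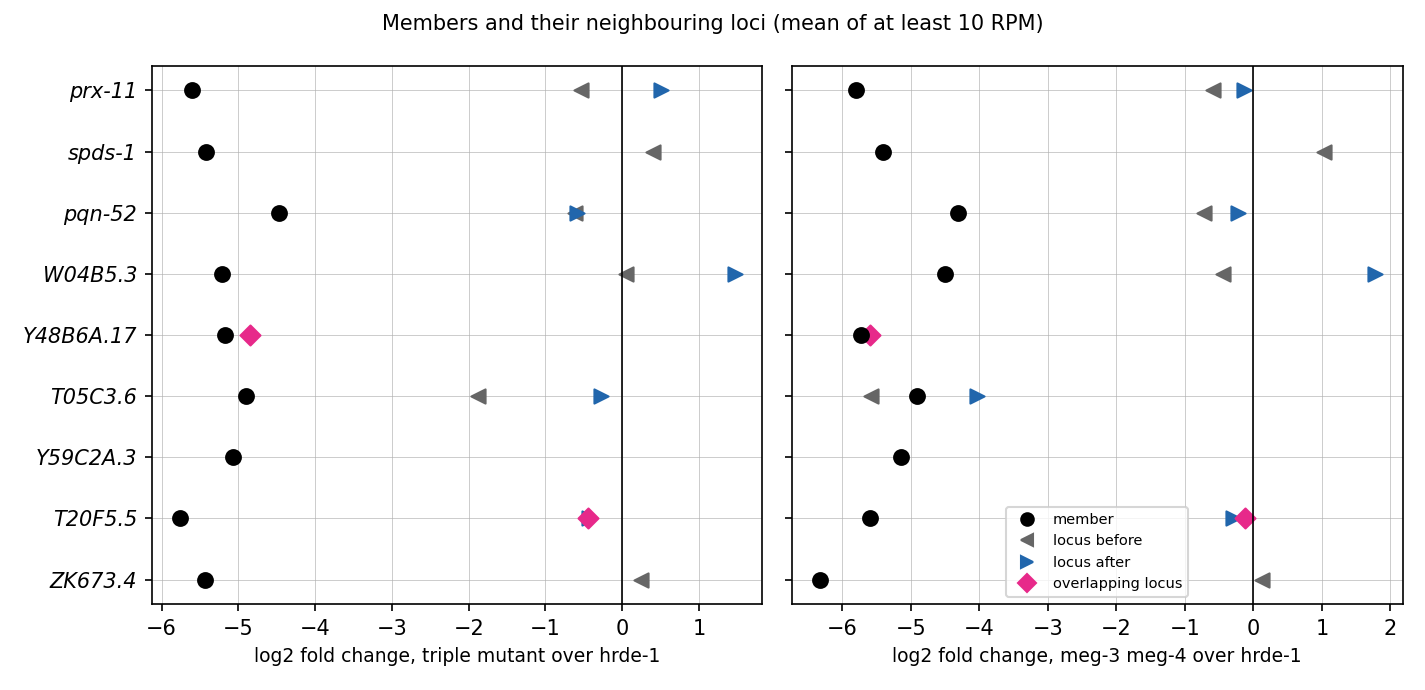
Log2 fold changes over hrde-1 (left, triple mutant; right, meg-3 meg-4) of the 9 matched members (circles), the loci before and after each (triangles) and loci that overlap it (diamonds), where the mean was at least 10 RPM. Members lie between −6.33 and −4.31 and most neighbours near 0. The exceptions are the neighbours of T05C3.6 and the locus over Y48B6A.17 on the low side, and W04B5.2 beside W04B5.3 and, in meg-3 meg-4 at 1.04, Y46G5A.18 beside spds-1 on the high side.

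Beside W04B5.3, the pseudogene W04B5.2 went the other way. It had 877.6 and 678.7 RPM in the triple mutant, 893.4 and 1023 RPM in meg-3 meg-4, and 200.7 and 389.0 in hrde-1, so that all 4 libraries without MEG-3 and MEG-4 were above both hrde-1 libraries. The log2 fold change was 1.77 in meg-3 meg-4 over hrde-1 (SE 0.37, limma adjusted p = 0.00368) and 1.46 in the triple mutant over hrde-1 (SE 0.37, limma adjusted p = 0.0217). The triple mutant call was lost when libraries were scaled to totals (1.03, limma adjusted p = 0.0569) or to microRNA reads (0.34, limma adjusted p = 0.234). It was also lost without triple mutant replicate 1 (1.28, limma adjusted p = 0.233) and without hrde-1 replicate 1 (1.06, limma adjusted p = 0.143). In the authors' deposited table W04B5.2 was lower in hrde-1 than in N2, with a log2 fold change of −1.51 (adjusted p = 1.29e-05), while its neighbour W04B5.3 was higher.

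The 2 loci beside T05C3.6 behaved unlike it in the triple mutant. At grl-18, a gene of the ground-like family related to hedgehog proteins, there were 23.1 and 35.2 RPM in the triple mutant, 1.35 and 1.2 RPM in meg-3 meg-4, and 89.3 and 129.2 in hrde-1. The 3 strains did not overlap, and the triple mutant lay between the others. Small RNAs at grl-18 fell relative to hrde-1 both in meg-3 meg-4 (log2 fold change −5.57, SE 0.34, limma adjusted p = 1.70e-07) and in the triple mutant (−1.88, SE 0.34, limma adjusted p = 0.00233). At T05C3.2 there were 77.4 and 43.1 RPM in the triple mutant, 4.22 and 2.61 RPM in meg-3 meg-4, and 68.2 and 72.5 in hrde-1. Here the triple mutant libraries lay on both sides of hrde-1 (log2 fold change −0.28, SE 0.35, limma adjusted p = 0.693), and meg-3 meg-4 was lower than hrde-1 (−4.04, SE 0.35, limma adjusted p = 2.29e-06).

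In the triple mutant relative to meg-3 meg-4 the 3 loci of this stretch had different values, that of T05C3.6 being limited by its choice. The log2 fold change was 3.70 at grl-18 (SE 0.34, limma adjusted p = 1.53e-05) and 3.76 at T05C3.2 (SE 0.35, limma adjusted p = 1.82e-05), but 0.01 at T05C3.6 between them (SE 0.36). In N2 all 3 were low, with authors' means of 2.73, 2.78 and 23.0 in deposited signal at grl-18, T05C3.2 and T05C3.6. The authors' deposited tables give log2 fold changes of 3.67 and 4.72 at grl-18 and T05C3.2 in the triple mutant over N2, and of 5.65 and 5.0 in hrde-1 over N2. Small RNAs at both flanking genes were thus high in both strains with the hrde-1 mutation, while those at T05C3.6 were high in the single mutant alone. T05C3.2 lies on the strand of T05C3.6 and grl-18 on the other, and neither shares exonic bases with it.

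**Figure D5:**
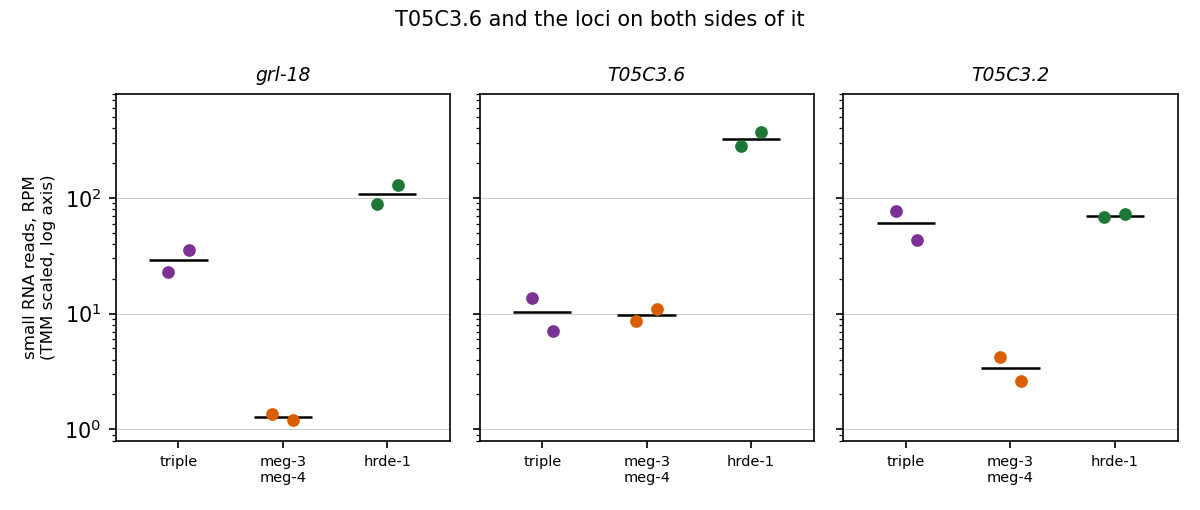
Small RNA level at grl-18, T05C3.6 and T05C3.2, which lie side by side, as RPM on a log axis in each library (points) with the strain mean (line). In the triple mutant grl-18 and T05C3.2 are between 23.1 and 77.4 RPM, and T05C3.6 is at 13.6 and 7.03 RPM. In meg-3 meg-4 the flanking loci are at or below 4.22 RPM.

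Overlapping annotation limits what can be said of Y48B6A.17. The protein-coding gene Y48B6A.10 lies on its opposite strand, and the 2 share 883 exonic bases, 95.3% of the exons of Y48B6A.17. Y48B6A.10 had 13.9 and 10.3 RPM in the triple mutant, 4.89 and 9.04 RPM in meg-3 meg-4, and 305.8 and 453.3 in hrde-1, the pattern of the member. The authors' deposited table gives it a log2 fold change of 3.17 for hrde-1 over N2, from an authors' N2 mean of 53.0 and hrde-1 signals of 423.1 and 532.1. The strand setting of the counting is not given in the sources used here, so reads of these 2 loci cannot be told apart. The other overlaps were small. T20F5.6 shares 48 exonic bases (4.05%) with T20F5.5 and did not have its pattern, with log2 fold changes over hrde-1 of −0.45 in the triple mutant and of −0.12 in meg-3 meg-4. The gene prx-11 lies within the span of gale-1 without shared exonic bases, and gale-1 had between 3.75 and 6.97 RPM in all 6 libraries.

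Few other genes of the pathways to which the named members belong had enough reads to be tested, so their counts say little beside the 5.91% of all loci called lower than hrde-1 in the triple mutant and the 9.38% called lower in meg-3 meg-4. Of the 21 peroxisome genes listed, 6 could be tested, and prx-11 was the 1 gene called in either comparison with hrde-1. Of the polyamine genes listed, spds-1 and hpo-15 could be tested, and hpo-15 fell along with spds-1. That list also held cps-6, which is no polyamine gene and was not called in either comparison. At hpo-15 there were 45.9 and 43.1 RPM in the triple mutant, 16.4 and 26.5 RPM in meg-3 meg-4, and 84.8 and 185.3 in hrde-1. Its log2 fold change was −2.53 in meg-3 meg-4 over hrde-1 (SE 0.40, limma adjusted p = 4.07e-04) and −1.47 in the triple mutant over hrde-1 (SE 0.40, limma adjusted p = 0.0311). The triple mutant call was lost without triple mutant replicate 1 (limma adjusted p = 0.0710), without triple mutant replicate 2 (limma adjusted p = 0.0833) and without hrde-1 replicate 2 (limma adjusted p = 0.158). The authors' deposited table places hpo-15 with the loci that gained small RNAs in hrde-1, with a log2 fold change over N2 of 2.92.

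Of 63 genes named pqn 16 could be tested. For the triple mutant over hrde-1, 2 were called lower (pqn-52 and pqn-80) and 2 higher (pqn-24 and pqn-83), and in meg-3 meg-4 over hrde-1 the same 2 were lower and pqn-65 joined the higher ones. The median of the 16 was −0.19 in the triple mutant over hrde-1 and 0.07 in meg-3 meg-4 over hrde-1, beside −0.18 and −0.15 over all loci. At pqn-80 there were 59.1 and 57.2 RPM in the triple mutant, 61.8 and 63.5 RPM in meg-3 meg-4, and 235.9 and 285.9 in hrde-1. Small RNAs at pqn-80 fell by 2.14 (SE 0.32, limma adjusted p = 5.18e-04) in the triple mutant and by 2.04 (SE 0.32, limma adjusted p = 4.40e-04) in meg-3 meg-4 on the log2 scale. That is the direction of pqn-52 at a smaller size. At pqn-83 the direction was opposite, with 221.7 and 240.5 RPM in the triple mutant, 212.6 and 291.4 RPM in meg-3 meg-4, and 44.4 and 61.8 in hrde-1. At pqn-24 the triple mutant libraries were far apart, at 6.87 and 73.1 RPM, with 122.0 and 374.9 in meg-3 meg-4 and 0.44 and 1.44 in hrde-1. At pqn-65 they were 17 and 11.7 RPM, with 31.6 and 34.5 in meg-3 meg-4 and 13.1 and 13.6 in hrde-1. Relative to meg-3 meg-4 in the triple mutant, pqn-24 and pqn-65 were called lower and no other of the 16 was called.

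Genes of small RNA amplification and inheritance, such as Argonautes and RNA-dependent RNA polymerases, can themselves be targets of small RNAs. Of the 39 listed, 33 were tested. By limma 0 were called in the triple mutant over hrde-1, and 0 were called lower in meg-3 meg-4 over hrde-1, where rde-11, rrf-2 and sid-1 were called higher. DESeq2 and edgeR gave the same counts. At an unadjusted p under 0.05 there were 3 genes in the triple mutant over hrde-1, all of them higher, and 2 lower ones, nrde-2 and csr-1, in meg-3 meg-4 over hrde-1. Over all loci 5.91% were called lower in the triple mutant than in hrde-1 and 9.38% lower in meg-3 meg-4 than in hrde-1. Relative to meg-3 meg-4, rde-11 and sid-1 were called lower in the triple mutant. The median of the 33 was −0.38 in the triple mutant over hrde-1 and −0.12 in meg-3 meg-4 over hrde-1.

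Loci with the pattern of the 10 were looked for by the distance of each locus's profile over the 6 libraries, as centred log2(RPM + 1), from the median profile of the members. The members themselves lay at distances of 0.47 (spds-1) to 1.41 (ZK673.4), and the median over all loci tested, members included, was 6.12. That profile was taken from the members, so their closeness to it followed from their choice. The 6 nearest loci were Y108G3AL.3 (0.58), F32D8.7 (0.65), the cadherin gene cdh-9 (0.69), the cuticlin-like gene cutl-26 (0.87), the bestrophin gene best-18 (0.88) and W02B8.2 (0.91). All 6 are protein-coding. F32D8.7 had no read in any of the 4 libraries without MEG-3 and MEG-4, and 46.3 and 68.2 RPM in hrde-1. W02B8.2 had 93.4 and 98.0 RPM in the triple mutant, 88.9 and 100.4 RPM in meg-3 meg-4, and 2522 and 2635 in hrde-1. In the authors' deposited table all 6 were called higher in hrde-1 than in N2, with log2 fold changes from 3.26 at W02B8.2 to 9.47 at F32D8.7. That call does not separate the 2 kinds of members, since spds-1, pqn-52 and W04B5.3 were called higher too. The authors' N2 mean in deposited signal was 343.1 at W02B8.2 and 9.56 at Y108G3AL.3. It was near the floor at F32D8.7 (0.11), cutl-26 (0.39), best-18 (0.99) and cdh-9 (1.92), so the size of their fold changes is uncertain. Both W02B8.2 and Y108G3AL.3 were called lower in the triple mutant than in N2 in the authors' deposited table. The log2 fold changes were −1.57 (adjusted p = 3.18e-14) and −3.30 (adjusted p = 0.00162). At Y108G3AL.3 the triple mutant libraries held 4 and 2 reads. In that comparison best-18 was not called, and F32D8.7, cdh-9 and cutl-26 have no adjusted p.

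The 10 loci are not the whole of the pattern. Of all loci tested 323 were called lower than hrde-1 in both strains, the 10 among them. Ranked by the smaller of the 2 losses, the members took places between 3 (prx-11) and 32 (pqn-52), and 22 loci that are not members were ranked above pqn-52. The member with the smallest loss, pqn-52, had −4.31, and the next locus after it, asah-1, had −4.27.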

How the data were processed

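The submitters' processing notes name the tools HTSeq, DESeq2, Bowtie2 and cutadapt, and genome build ce10. Their roles, settings and versions, including strand, are not given in the sources used here. The authors deposited 3 tables that each compare a pair of strains. Per the file headers their library columns are fpm. In the tables of the triple mutant relative to meg-3 meg-4 and of hrde-1 relative to N2 the deposited values are a scaled signal, and in the remaining one they are RPM with 1 common total. The authors' log2 fold change with its adjusted p-value is deposited in each table.

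Every library value was a whole multiple of the smallest (100% of loci above 0, tolerance 0.001 read), so reads were recovered from the deposited values with that smallest value as 1 read. As no table holds all 3 strains, TMM scaling was run on the recovered reads of all 6 libraries (edgeR 4.0.16), giving RPM. The model was limma 3.58.1 with an intensity trend, on log2(RPM + 1), at the 6469 loci with a mean of at least 10 RPM. The 3 strains shared 1 estimate of the spread, and a locus was called where its p, adjusted by Benjamini-Hochberg over all loci tested, was under 0.05. The procedure was tested on simulated data. N2 is not in the sample list. Its 4 per-library columns were not used, and 2 mean columns were taken as the authors' N2 mean.

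The members, the gene lists and the tests were chosen with earlier results of these data known. Named are all members, the nearest locus on each side of each matched member, the 6 loci of nearest profile, and called genes of the pathway lists. Other loci were named after their values were seen. Class, order, overlap and exon length come from the WBcel235 annotation, matched by identifier at 41759 loci and unmatched at 643. Its build differs from ce10, so no coordinates are given. Alternatives covered scaling to totals, to microRNA reads and with DESeq2 size factors, pseudocounts of 0.5 and 5, no filter and a mean of at least 50 RPM, a replicate block, each library left out, only the strains compared, the deposited values, and edgeR and DESeq2 1.42.0 on the recovered reads. The same settings for neighbouring loci and genes of lists were added after seeing the data.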

Additional observations from a re-analysis of the deposited data

How the results depend on the processing

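The 10 loci were lower than hrde-1 in both strains without MEG-3 and MEG-4 under each of the 17 alternatives that gave a value, and no member changed sign in either comparison. The median in the triple mutant over hrde-1 was −5.70 with scaling to totals, −6.35 with scaling to microRNA reads, −4.82 with a pseudocount of 5, −5.58 with edgeR and −5.61 with DESeq2. With 1 library left out it lay between −5.57 and −5.09. In meg-3 meg-4 over hrde-1 the median was −6.18 with scaling to microRNA reads and −4.86 with a pseudocount of 5, and between −5.39 and −4.88 with 1 library left out. In the triple mutant relative to meg-3 meg-4 it lay between −0.35 and 0.27 with 1 library left out. With only these 2 strains or the deposited values, 2 members passed the filter and no median was taken. The number of flanking loci called lower than hrde-1 was 2, but 8 with scaling to microRNA reads and 0 of 5 with a mean of at least 50 RPM, where fewer loci were tested. The cause of the other shifts was not tested.

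Counts over all loci moved by over 1.5 times as follows. In the triple mutant over hrde-1 there were 665 calls, but 5084 with scaling to microRNA reads, 405 with a mean of at least 50 RPM, 421 without triple mutant replicate 1, 385 without hrde-1 replicate 1 and 1020 with only the strains compared. In meg-3 meg-4 over hrde-1 there were 1061, but 3065 with scaling to microRNA reads and 566 with a mean of at least 50 RPM. For the triple mutant relative to meg-3 meg-4 there were 512, but 328 with a mean of at least 50 RPM. The share of calls that were higher was 42.6% in the triple mutant over hrde-1, against 16.9% when scaled to totals and 0.81% with microRNA reads. In meg-3 meg-4 over hrde-1 it was 42.8%, against 5.48% with scaling to microRNA reads. For the triple mutant relative to meg-3 meg-4 it was 62.5%, against 48.5% with scaling to totals. Scaling to totals moved the median of all loci to −0.60, −0.34 and −0.27 in the 3 comparisons. The replicate numbers were not treated as pairs, and the labels do not say whether they are. The deviations of replicate 1 correlated at −0.11 for meg-3 meg-4 with the triple mutant and −0.19 for the triple mutant with hrde-1. For meg-3 meg-4 with hrde-1 the correlation was 0.55, so replicates of these 2 strains shared part of their deviations. With a replicate block the medians stayed at −5.32, −5.27 and −0.01, the counts were 831, 1251 and 646, and no call of a member changed.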

Other observations

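Ranked by the smaller of the 2 losses against hrde-1, 22 loci that are not members came before pqn-52. Among them were tctn-1, bbs-5, dyf-3 and col-121, which were picked after their values had been seen. The gene tctn-1, for a protein of the ciliary transition zone, had 1.08 and 3.28 RPM in the triple mutant, 1.18 and 1.2 RPM in meg-3 meg-4, and 117.3 and 195.7 in hrde-1. In the authors' deposited table its log2 fold change was 6.75 in hrde-1 over N2, from an authors' N2 mean of 1.81 in deposited signal. It thus belongs with the loci that gained small RNAs in hrde-1. The gene bbs-5, for a subunit of the BBSome, had 17.7 and 25.8 RPM in the triple mutant, 2.53 and 3.41 RPM in meg-3 meg-4, and 490.3 and 699.4 in hrde-1. The authors' deposited tables give it −3.58 in the triple mutant over N2 and 1.29 in hrde-1 over N2, with a deposited signal of 678.5 and 820.9 in the hrde-1 libraries and 305.9 as the authors' N2 mean. The gene dyf-3, needed for intraflagellar transport, averaged 27.3 ± 3.8 RPM in the triple mutant, 12.1 ± 4.7 in meg-3 meg-4, and 576.0 ± 160.6 in hrde-1 (SD, n = 2 each), and 3.03 as the authors' deposited log2 fold change of hrde-1 over N2.

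The collagen gene col-121 rested on uneven libraries, with 77.5 and 4.22 RPM in the triple mutant, 1.35 and 1.00 RPM in meg-3 meg-4, and 383.7 and 507.7 in hrde-1.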
